A study of Mus musculus with 8 samples.

Results

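Tcf21, Meis1, Meis2, Hlx, Twist1, Prrx1 and Barx1 are 7 transcription factor genes of mesenchyme, followed here in lung mesenchyme of mouse embryos. They were taken as all probe sets (groups of short array probes that report 1 transcript) whose only gene symbol on the platform is one of the 7, which gave 18 of 45037 probe sets, or 7 of 18193 named genes. Prrx1 has 6 of them, Meis2 has 4, Meis1 has 3, Tcf21 has 2, and Hlx, Twist1 and Barx1 have 1 each.

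Tcf21 and Twist1 are basic helix-loop-helix proteins, which bind DNA as pairs, often with the broadly expressed E proteins. Tcf21 marks mesenchyme of lung, kidney and epicardium, and mice without it have small lungs with poor branching. Meis1 and Meis2 are TALE homeodomain proteins, a class with a loop in the homeodomain, and act with Pbx and Hox proteins. Hlx, Prrx1 and Barx1 are homeodomain proteins known from the mesenchyme of liver and gut, of limb and face, and of stomach.

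The arrays fall into 4 groups of 2, all from CD1 embryos of e11.5 to e12.5. Tip mesenchyme surrounds the growing ends of the airway branches and was profiled without culture. Stalk mesenchyme surrounds the airway behind the tips. For the cultured groups, stalk tissue spent 12 h on plastic, either in medium with 400 ng/ml of Wnt1, a secreted signalling protein, or in control medium without it. The last group is stalk profiled without culture. The pieces are dissected tissue and not sorted cells. The labels name no litter or pool for the 2 arrays of a group. The spread behind each p-value is therefore that between arrays and may be technical, and the number of arrays limits the precision of every value.

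The cultured arrays stood apart before any gene is considered. Each array had been scaled to a 2% trimmed mean of 500, but the median signal was 149.0 to 298 on the cultured arrays and 76.2 to 99.4 on the uncultured ones. For Actb, the 3' control probe set over the 5' one, which rises as RNA or labelled product gets shorter, gave 6.81 to 24.4 with culture and 2.02 to 4.52 without. Of 9 markers of lung mesenchyme, all 9 exceeded the highest array median (298, used here as a stand-in for a noise floor) on both arrays of tip and of stalk, and 8 did so in either culture. Of these 9, 5 fell and 1 rose in each culture against stalk. Of 8 epithelial markers Krt8 and Krt18 exceeded that value on every uncultured array, with signals of 486 to 1118 and 496 to 1046, and the other 6 lay at 238 or below. All 8 summed to 1631 to 2657 in tip, 4390 to 12454 with Wnt1, 4881 to 5430 in control culture and 1507 to 1733 in stalk. The 6 smooth muscle markers summed to 149310 to 178690 with Wnt1, 110240 to 125280 in control culture and 4451 to 5643 in stalk, and 5 of the 6 rose in each culture. The 4 erythroid markers summed to 8964 to 21250 with Wnt1, 5784 to 14178 in control culture and 38380 to 66652 in stalk. The 6 endothelial markers summed to 815 to 1605 with Wnt1, 1181 to 1237 in control culture and 5154 to 6407 in stalk. The 6 macrophage markers summed to 5518 to 5934, 6726 to 15198 and 2951 to 3727 in the same order. Of these 6, 1 rose with Wnt1 and 3 in control culture. Mrc1 went the other way, with 214 and 198 with Wnt1 and 202 and 188 in control culture, against 388 and 905 in stalk. In tip the smooth muscle sum was 1200 to 3850, the endothelial sum 2870 to 4205 and the mesothelial sum 4450 to 7505 (3292 to 3415 in stalk), each without overlap with stalk. The macrophage sum was 874 on tip replicate 1 and 3954 on tip replicate 2. The part of these shifts in the results below was not tested, and fewer cells of a type cannot be told apart from less RNA per cell.

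The promoters of the 3 genes with a probe set that fell after culture are shown because these genes carry the falls described next. They are the 250 bases before an annotated start of each gene on GRCm38.p6, each on the minus strand, and all 7 genes matched the RefSeq table. The Tcf21 window directly adjoins the upper limit of its RefSeq gene span (22820143). Those of Meis1 and Meis2 lie inside the gene span, whose upper limits are 19019651 and 116067537. The start used for Meis1 and Meis2 is therefore not the outermost one. CANNTG (the E-box, bound by helix-loop-helix factors), TGACAG (bound by Meis proteins) and TAATTA (a homeodomain core) were searched on both strands. Capitals mark CANNTG, and no 2 motifs overlapped.
Tcf21, chr10:22820144-22820393: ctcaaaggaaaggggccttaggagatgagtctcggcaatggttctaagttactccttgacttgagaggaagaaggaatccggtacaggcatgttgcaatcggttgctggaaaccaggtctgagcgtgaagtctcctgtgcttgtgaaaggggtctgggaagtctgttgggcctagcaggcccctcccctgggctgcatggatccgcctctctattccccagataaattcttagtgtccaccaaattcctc
Meis1, chr11:19018970-19019219: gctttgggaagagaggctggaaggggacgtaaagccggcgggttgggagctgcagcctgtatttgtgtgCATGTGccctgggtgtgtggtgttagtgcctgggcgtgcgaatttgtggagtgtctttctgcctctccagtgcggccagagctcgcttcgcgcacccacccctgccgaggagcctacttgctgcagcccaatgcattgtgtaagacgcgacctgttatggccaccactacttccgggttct
Meis2, chr2:116064620-116064869: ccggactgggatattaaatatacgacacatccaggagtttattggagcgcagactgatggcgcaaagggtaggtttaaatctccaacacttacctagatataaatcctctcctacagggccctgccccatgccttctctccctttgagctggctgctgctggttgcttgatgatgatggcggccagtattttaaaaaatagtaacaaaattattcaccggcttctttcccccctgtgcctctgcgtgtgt

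The Meis1 window holds 1 CANNTG, starting 181 bases before the start used for it, while those of Tcf21 and Meis2 hold none of the 3 motifs. Among the windows of the other 4 genes, that of Prrx1 holds 1 TAATTA and the rest hold none. The Prrx1 window also lies inside its RefSeq gene span, whose upper limit is 163315145. Of 32851 promoter windows of this length, 66.2% hold CANNTG, 15.9% TGACAG and 4.84% TAATTA. A match is a description of these letters, and its absence says only that they are not in this window.

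Meis1 and Meis2 fell in both cultures against uncultured stalk, and Tcf21 fell in control culture, on the brightest probe set of the gene or, for Meis2, on the next brightest. A dimmer probe set of Tcf21 in control culture, and one of Meis1 in both cultures, rose instead. The Meis1 one exceeded the filter value given below only on the cultured arrays and 1 other, so its direction supports nothing. Prrx1 and Hlx gave no call on their brightest probe sets, and the dim signals of Twist1 and Barx1 were higher after culture without passing the test. Values were compared as log2(value + 44) with limma in 1 fit of all 8 arrays, with Benjamini-Hochberg adjustment over the 37414 probe sets above a low-signal filter and a threshold of 0.05. Of the 18 probe sets, 17 passed that filter. In Wnt1 culture against stalk 1 of the 17 rose and 2 fell, where 11.4% of all probe sets passed (7.09% higher and 4.34% lower). The rise was that of Meis1 on 1459423_at. In control culture against stalk 3 rose and 4 fell, where 23.2% passed (16.8% higher and 6.42% lower). Every fall in either culture was among the 10 members whose mean exceeded the highest array median. Of these 10, 4 fell and 1 rose in control culture, and 2 fell and 1 rose with Wnt1. Of all probe sets at that level 14.6% fell in control culture and 9.9% with Wnt1. With Wnt1 8 of the 17 lay above both stalk arrays without overlap and 6 below, beside 45% and 19.9% of all probe sets (64.8% in either direction). In control culture 7 lay above and 4 below, beside 51.4% and 19.7% (71.1% in either direction). These comparisons share the stalk arrays.

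**Figure D1:**
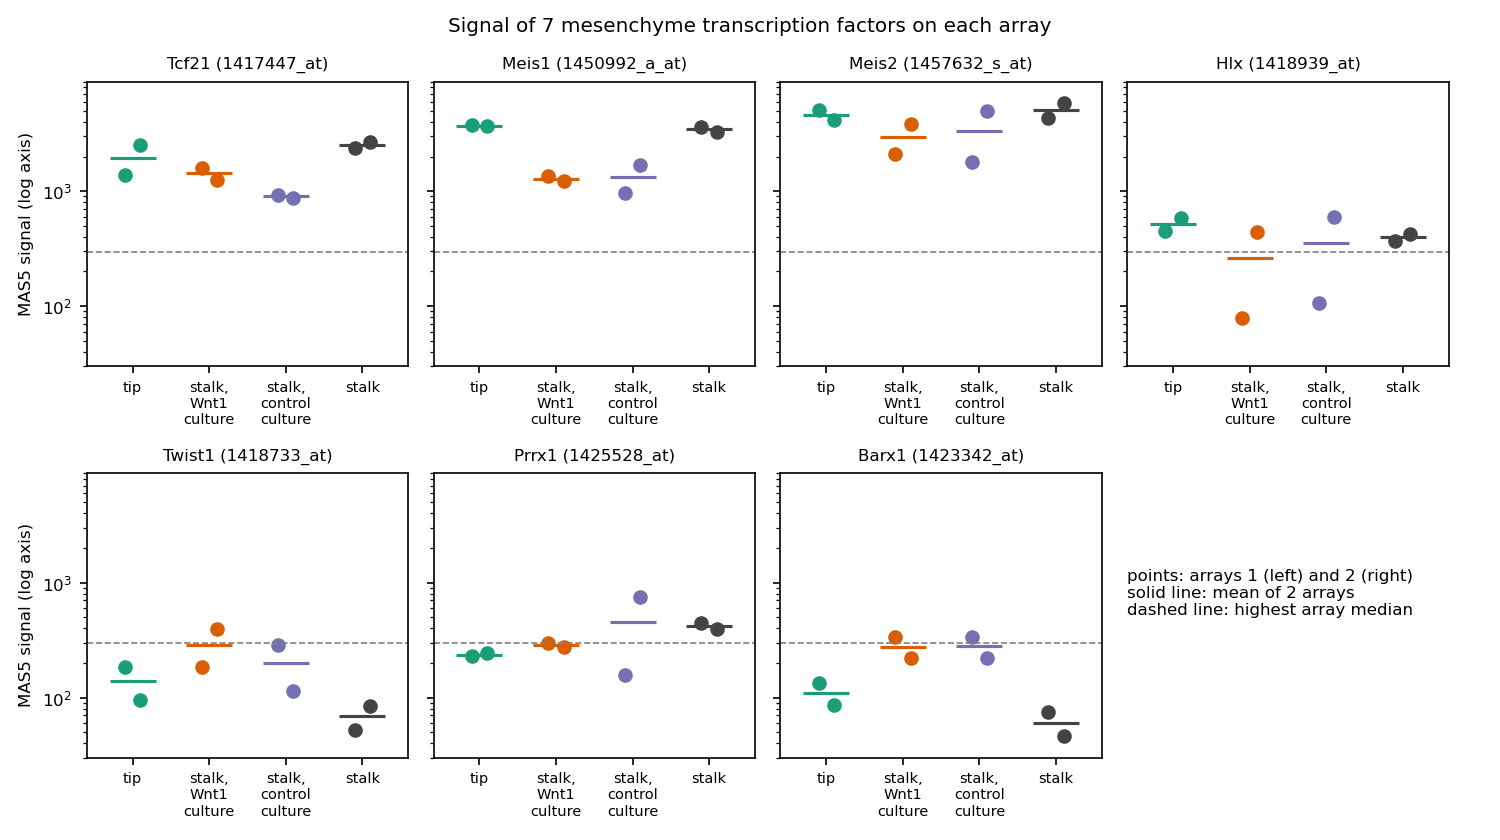
MAS5 signal on a log axis of the brightest probe set of each gene, with the 2 arrays of each group as points, their mean as a line and the highest array median (298) dashed. Tcf21 and Meis1 are lower on all 4 cultured arrays than on both uncultured stalk arrays, Hlx splits by array within both cultures, and Twist1 and Barx1 lie mostly under the dashed line.

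Tcf21 had a signal of 1601 and 1251 with Wnt1 and of 924 and 878 in control culture, against 2394 and 2659 in stalk (probe set 1417447_at). Its tip arrays were at 1373 and 2505. The order of the means was stalk (2527 ± 188), tip (1939 ± 801), Wnt1 culture (1426 ± 248) and control culture (901 ± 32.4; SD, n = 2 each). Tip overlapped with both of its neighbours in this order, while Wnt1 and control culture did not overlap. The stalk mean was 2.81 times that of control culture. Tcf21 fell in control culture, with a log2 fold change of -1.44 ± 0.37 (SE; limma, adjusted p = 0.019), and was at -0.81 ± 0.37 in Wnt1 culture, which did not pass (adjusted p = 0.13). Its second probe set, 1458887_at, moved the other way and was dim, with 542 and 256 in control culture against 120 and 58.5 in stalk. This rise of 1.69 ± 0.58 (adjusted p = 0.047) was 0.39 with values under the highest array median raised to it. The rise passed in 7 of 19 alternatives. The probe sets of Tcf21 thus disagree in direction, but the mean of 1458887_at lay under the highest array median. Of all tested probe sets at that level, 85.9% had positive changes in control culture and 20.4% passed as higher.

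Meis1 gave 1359 and 1217 with Wnt1 and 968 and 1673 in control culture, against 3628 and 3300 in stalk (1450992_a_at). Both tip arrays, at 3739 and 3676, lay just above stalk. The groups ran in the order tip (3707 ± 45.0), stalk (3464 ± 232), control culture (1320 ± 498) and Wnt1 culture (1288 ± 100.4), and the 2 cultures overlapped. Meis1 fell in both, with log2 fold changes of -1.40 ± 0.35 with Wnt1 (adjusted p = 0.028) and -1.41 ± 0.35 in control culture (adjusted p = 0.018). The 2 other probe sets of Meis1 did not follow it. For 1459423_at the signal was 871 and 396 with Wnt1 and 592 and 576 in control culture, against 67.6 and 60.0 in stalk. It rose in both (2.56 ± 0.54, adjusted p = 0.016, and 2.54 ± 0.54, adjusted p = 0.011). With the signal floor these rises were 0.89 and 0.88, and they passed in 14 and 13 of 19 alternatives. Of the uncultured arrays only tip replicate 1 exceeded the filter value on this probe set, so its direction supports nothing. The third, 1443260_at, was at -0.95 ± 0.53 in Wnt1 culture and at 0.11 ± 0.53 in control culture, and neither passed.

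Meis2 was measured by 4 probe sets. On 1417129_a_at it gave 1303 and 1343 with Wnt1 and 847 and 931 in control culture, against 3019 and 2997 in stalk, with tip at 2681 and 3087. Every cultured array lay below every uncultured one. Meis2 fell on it by 1.16 in Wnt1 culture (SE 0.32, adjusted p = 0.038) and by 1.71 in control culture (SE 0.32, adjusted p = 0.0068). On 1447861_x_at the values were 504 and 493 with Wnt1 and 342 and 467 in control culture, against 955 and 976 in stalk, a fall of 1.19 in control culture (SE 0.37, adjusted p = 0.036) and a change of -0.90 ± 0.37 in Wnt1 culture (adjusted p = 0.11). The brightest probe set, 1457632_s_at, had 2107 and 3868 with Wnt1 and 1804 and 4936 in control culture, against 4363 and 5845 in stalk. Its culture arrays numbered 2 lay near the stalk level and those numbered 1 far below, and it did not pass in either culture (-0.81 ± 0.45 and -0.75 ± 0.45). The control culture value was -0.03 without control replicate 1 and -1.46 without control replicate 2 (adjusted p = 0.027 in the second case). Probe sets with the suffixes _s_at and _x_at can share sequence with other transcripts. The fourth, 1440091_at, was at 0.09 ± 0.60 and -0.16 ± 0.60 in the 2 cultures.

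Hlx had 78.5 and 441 with Wnt1 and 106 and 596 in control culture, against 368 and 424 in stalk (1418939_at). In both cultures array 1 was the low one, so each culture group overlapped with stalk. The changes were -0.85 ± 0.69 with Wnt1 and -0.50 ± 0.69 in control culture, and neither passed (adjusted p = 0.38 and 0.59). Without control replicate 1 the second was 0.54, and without Wnt1 replicate 1 the first was 0.14.

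Prrx1 was at 300.0 and 277 with Wnt1 and at 158 and 751 in control culture, against 443 and 392 in stalk (1425528_at). The control culture arrays lay on both sides of stalk. This probe set gave -0.47 ± 0.57 and -0.20 ± 0.57 in the 2 cultures (adjusted p = 0.56 and 0.80), and 0.79 in control culture without control replicate 1. Of all tested probe sets with a mean under the highest array median, 82.6% had positive changes with Wnt1 and 85.9% in control culture. The 4 other tested probe sets of Prrx1 were dimmer, with means at that level, and had positive changes in both cultures. Of these, 1425526_a_at rose in control culture, with 620 and 314 against 114 and 113 in stalk (1.63 ± 0.54, adjusted p = 0.042), and this was 0.51 with the signal floor and passed in 9 of 19 alternatives. The sixth, 1458004_at, exceeded the filter value on 1 array only and was not tested.

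Twist1 had 184 and 394 with Wnt1 and 285 and 114 in control culture, against 52.2 and 84.6 in stalk (1418733_at). Only Wnt1 replicate 2 exceeded the highest array median. All cultured values lay above stalk, but the changes of 1.51 ± 0.62 and 1.04 ± 0.62 did not pass (adjusted p = 0.11 and 0.21), and in control culture the sign turned with quantile normalization (-0.15) and with median scaling (-0.09). Barx1 had 336 and 220 with Wnt1 and 339 and 219 in control culture, against 74.5 and 46.7 in stalk (1423342_at). The 2 cultures were nearly the same array by array, both above stalk, with changes of 1.61 ± 0.56 with Wnt1 (adjusted p = 0.070) and 1.62 ± 0.56 in control culture (adjusted p = 0.051). Array 1 of either culture lay just above the highest array median and array 2 below it, and with the signal floor both changes were 0.08. Barx1 passed in 2 of 20 alternatives with Wnt1 and in 7 of 20 in control culture.

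**Figure D2:**
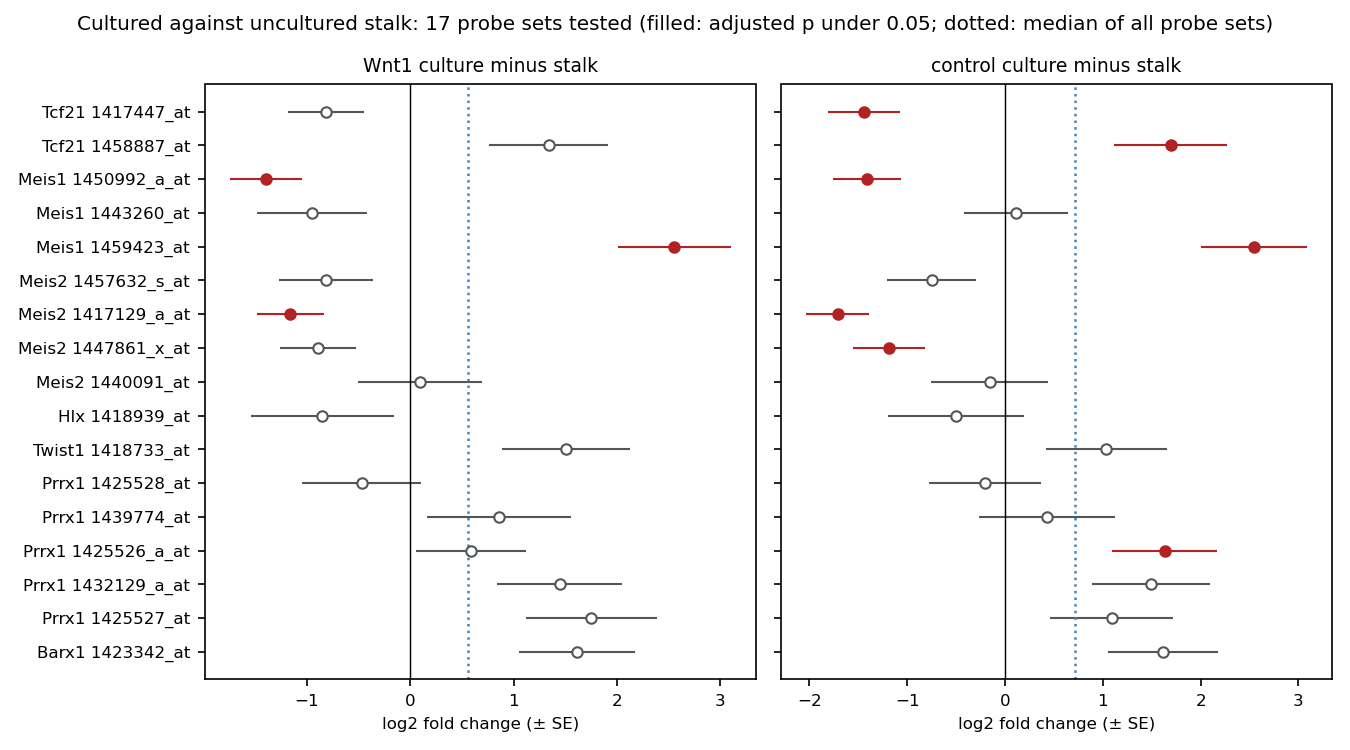
Log2 fold changes with SE of the 17 tested probe sets for Wnt1 culture (left) and control culture (right) against stalk, filled where the adjusted p was under 0.05, with the median of all probe sets dotted. The brightest probe sets of Tcf21, Meis1 and Meis2 lie left of 0 in both panels, while Meis1 on 1459423_at lies farthest right. Meis1 on 1443260_at and Meis2 on 1440091_at change side between the panels.

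All tested probe sets together had a median log2 fold change of 0.56 in Wnt1 culture and 0.72 in control culture. Relative to that median the control culture values were -2.16 for Tcf21 and -2.13 for Meis1. The median was positive only among dimmer probe sets. Among those with a mean above the highest array median, as these Tcf21 and Meis1 probe sets have, it was -0.18 in either culture. By size of change in control culture, Tcf21 and Meis1 ranked at percentiles 66.95 and 65.6 of all tested probe sets. Prrx1 on 1425527_at exceeded the filter value on 4 arrays, all cultured. Barx1, Twist1, Meis1 on 1459423_at and Prrx1 on 1432129_a_at did so on the cultured arrays and 1 other. These passed the filter through the groups where they were high, so their direction supports nothing.

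**Figure D3:**
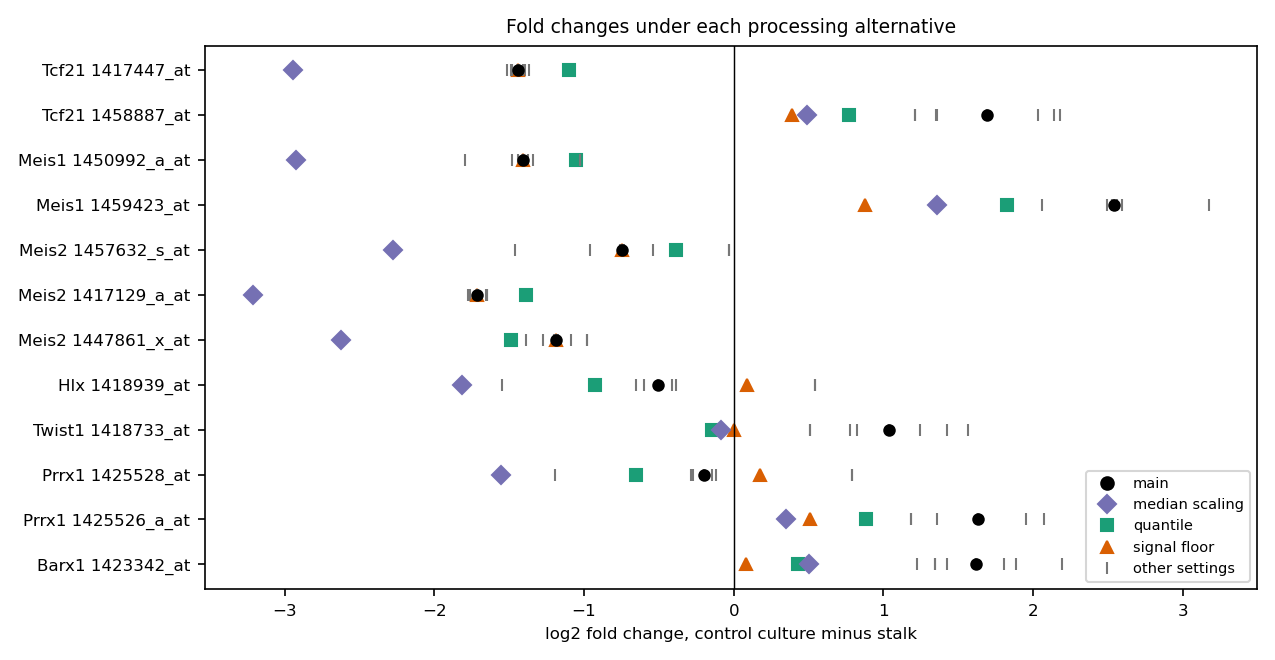
Log2 fold changes of 12 probe sets, the brightest of each gene and any other that passed against stalk, in control culture against stalk under the main settings (black) and each alternative. The brightest of Tcf21, Meis1 and Meis2 and both called falls of Meis2 stay left of 0 throughout, while Hlx, Twist1 and the brightest Prrx1 probe set cross it.

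Under 20 alternative settings the falls kept their direction but not always the test. Several settings left the group means of control culture and stalk as they were and could not change this direction. Examples are no filter, no intensity trend, array weights, and leaving out a tip or Wnt1 array. The kept direction therefore rests on the other settings. In control culture Tcf21 ranged from -2.94 to -1.10 and passed in 15 of the 20, and Meis1 ranged from -2.92 to -1.03 and passed in 15. Meis2 on 1417129_a_at ranged from -3.21 to -1.39 over 19 alternatives and passed in 17, losing the call without stalk replicate 1 or without stalk replicate 2 (limma, adjusted p = 0.069 and 0.087). Tcf21 and Meis1 lost it without either stalk array, without control replicate 1, with quantile normalization and with the signal floor, where their fold changes were the same as without it. With Wnt1, Meis1 passed in 12 of 20 alternatives and Meis2 on 1417129_a_at in 10 of 19.

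Wnt1 in the medium gave no call for any of the 17 probe sets against control culture (limma, smallest adjusted p = 0.68, and 0 at an unadjusted p under 0.05), and 0% of all probe sets passed, with 2876 of 37414 (7.69%) at an unadjusted p under 0.05. Tcf21 had the largest change among the brightest probe sets of the 7 genes, with 1601 and 1251 with Wnt1 against 924 and 878 without (0.63 ± 0.37, adjusted p = 0.73). Its value was between 0.46 and 0.86 over the alternatives. Meis2 was at 0.55 ± 0.32 on 1417129_a_at (1303 and 1343 against 847 and 931) and at 0.29 ± 0.37 on 1447861_x_at (504 and 493 against 342 and 467). These 3 were the only members higher without overlap, and 1 member, Prrx1 on 1425526_a_at, was lower without overlap (185 and 200 with Wnt1 against 620 and 314). Of all tested probe sets 25.3% did not overlap, 8.94% being higher and 16.4% lower.

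The other genes gave smaller or split values with Wnt1. Meis1 was at 0.01 ± 0.35 and Barx1 at -0.0046 ± 0.56. Twist1 was at 0.47 ± 0.62 and Hlx at -0.35 ± 0.69. Prrx1 was at -0.27 ± 0.57, and at 0.72 without control replicate 2 and -1.26 without control replicate 1. Meis1 on 1443260_at was at 1206 and 272 with Wnt1 against 1085 and 1479 in control culture (-1.06 ± 0.53, adjusted p = 0.68), with Wnt1 replicate 2 alone low.

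**Figure D4:**
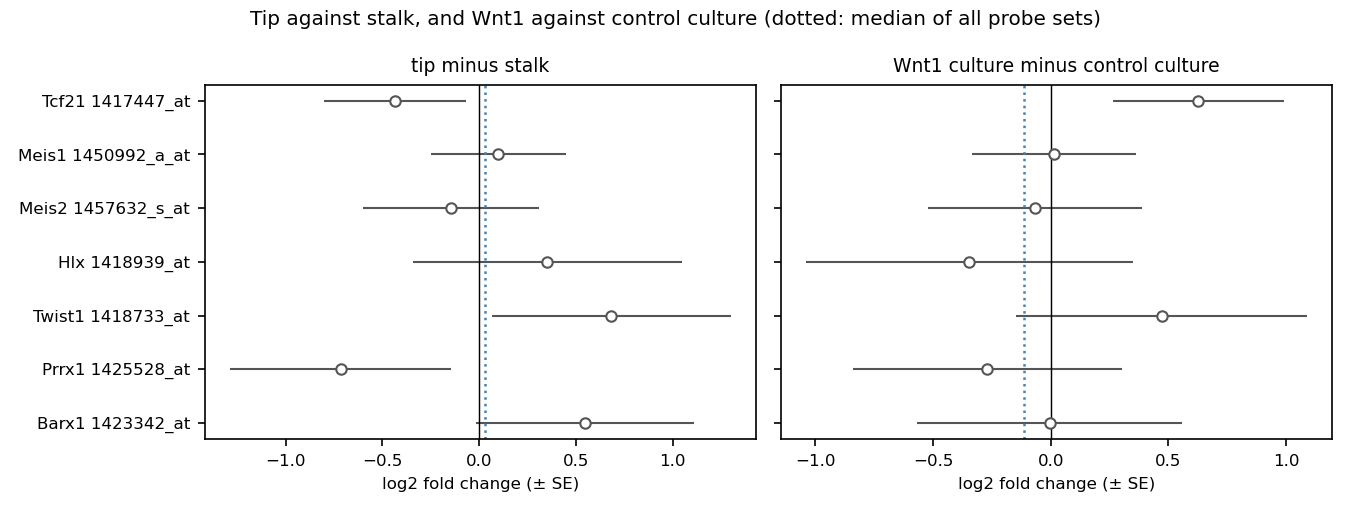
Log2 fold changes with SE of the brightest probe set of each gene for tip against stalk (left) and Wnt1 culture against control culture (right), with the median of all probe sets dotted. No gene passed the test in either panel, and Tcf21 in the right panel is the value farthest from 0 relative to its SE.

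In tip against stalk none of the 17 probe sets passed the test (limma, every adjusted p = 1, and 0 at an unadjusted p under 0.05), and 0% of all probe sets passed, with 155 of 37414 (0.414%) at an unadjusted p under 0.05. The SEs come from the fit shared by all groups, cultures included. Replicate arrays correlated at 0.963 in tip and 0.967 in stalk, but at 0.793 in control culture and 0.802 with Wnt1. These SEs may therefore be too wide for tip against stalk and too narrow between the cultures. The lack of calls does not show equal levels in tip and stalk. Tcf21 was at 1373 and 2505 in tip against 2394 and 2659 in stalk (-0.43 ± 0.37). Tip replicate 1 alone was low, and without it the change was -0.01. Meis1 was at 3739 and 3676 in tip against 3628 and 3300 in stalk (0.10 ± 0.35, and -0.02 with median scaling), and Meis2 at 5039 and 4128 against 4363 and 5845 (-0.15 ± 0.45). Prrx1 was lower in tip without overlap, with 230 and 244 against 443 and 392 in stalk (-0.72 ± 0.57). Its next probe set, 1439774_at, gave -0.09 ± 0.70.

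Hlx, Twist1 and Barx1 had higher values in tip without overlap. Hlx was at 452 and 589 in tip against 368 and 424 in stalk (0.35 ± 0.69). Twist1 was at 183 and 96.0 in tip against 52.2 and 84.6 in stalk (0.68 ± 0.62), and Barx1 at 133 and 85.4 against 74.5 and 46.7 (0.55 ± 0.56). With the signal floor the changes of Twist1 and Barx1 were 0, since all 4 arrays lay under it. In all, 6 of the 17 members were higher without overlap and 1 lower, where 18.5% and 14.6% of all probe sets were (33.1% in either direction). With tip and stalk fitted alone 0 members passed, and 1706 of all probe sets had an unadjusted p under 0.05.

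Other transcription factors that partner or resemble the 7 were read from lists, each gene by its brightest probe set. The median over genes, each by 1 probe set, was 0.45 in control culture against stalk and 0.35 in Wnt1 culture against stalk. Of 7 TALE homeodomain partners tested, 1 fell in control culture and none rose, with a list median of -0.76, beside 6.42% lower and 16.8% higher among all probe sets. With median scaling 6 fell, where 9345 of all 37414 probe sets fell, and with the signal floor none. The fall with the main settings was that of Pbx3, a DNA-binding partner of Meis proteins. Its mean signal was 4969 in control culture and 11628 in stalk (-1.24 ± 0.42, limma, adjusted p = 0.047). With Wnt1 none of the 7 passed, Pbx3 being at -1.29 ± 0.42 (adjusted p = 0.059) and Meis3 at 1.43 ± 0.52.

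Among 13 helix-loop-helix partners and relatives, 1 rose and 2 fell in control culture, and 2 rose and 2 fell with Wnt1, where 7.09% of all probe sets rose and 4.34% fell. With median scaling none rose and 5 fell in either culture. Under that scaling 9345 of all 37414 probe sets fell in control culture and 7157 with Wnt1. With the signal floor none of the list passed. The falls with the main settings were those of Tcf4 and Tcf12, E proteins that pair with factors of this class. Tcf4 had a mean of 1301 with Wnt1 and 762 in control culture, against 4694 in stalk (-1.95 ± 0.40, adjusted p = 0.014, and -2.56 ± 0.40, adjusted p = 0.0035). Tcf12 had 4151 and 3945, against 15080 in stalk (-1.90 ± 0.44 and -2.03 ± 0.44). Hand1, a factor of heart and extraembryonic mesoderm, rose in both cultures (2.05 ± 0.60 and 1.73 ± 0.60), and with the signal floor these were 0.62 and 0.19. Hand1 lay under the filter value on every uncultured array, so its direction supports nothing. Id1, which blocks DNA binding by such factors, rose with Wnt1 (1.26 ± 0.35, adjusted p = 0.038), and was at -0.00084 with median scaling.

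Of 18 other mesenchyme factors 7 fell and 1 rose in control culture, with a list median of -0.72, and with Wnt1 6 fell and none rose, with a median of -0.66. Of all probe sets 6.42% fell and 16.8% rose in control culture, and 4.34% fell and 7.09% rose with Wnt1. Of those with a mean above the highest array median, 14.6% fell in control culture and 9.9% with Wnt1. Tbx4 and Tbx5, T-box factors of the lung field, had means of 1098 and 918 with Wnt1 and of 809 and 1193 in control culture, against 3868 and 4180 in stalk. In control culture these were falls of 2.19 (SE 0.34, adjusted p = 0.0032) and 1.89 (SE 0.40, adjusted p = 0.010). The other named falls were those of the zinc finger factor Zeb2 (-2.83 ± 0.36 with Wnt1 and -2.02 ± 0.36 in control culture), the nuclear receptor Nr2f2 in control culture (-1.71 ± 0.35) and the forkhead factor Foxf1 with Wnt1 (-1.72 ± 0.38). With quantile normalization 4 of the 18 fell in control culture and 2 with Wnt1, with median scaling 11 and 9, and with the signal floor 2 and 1. Of all 37414 probe sets, 1298 and 482 fell with quantile normalization, 9345 and 7157 with median scaling, and 421 and 84 with the signal floor.

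**Figure D5:**
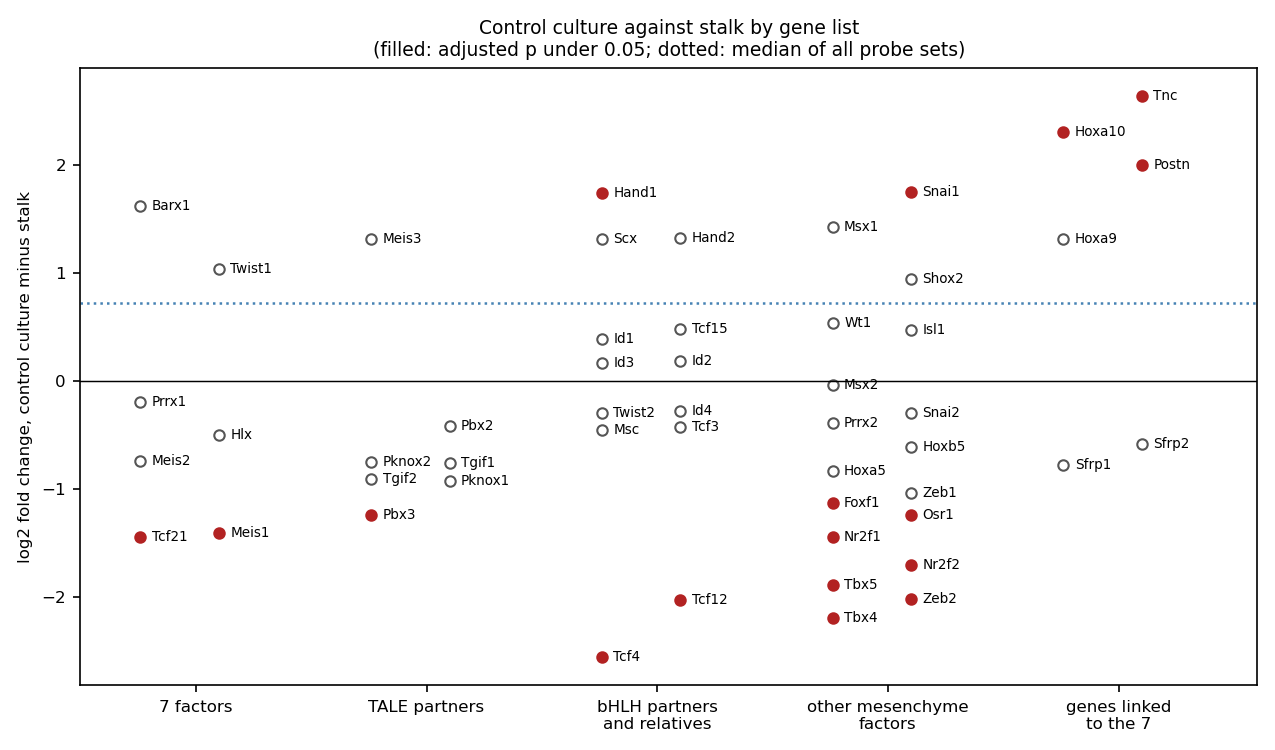
Log2 fold changes in control culture against stalk for the 7 factors and 4 lists of other genes, 1 point per gene, filled where the adjusted p was under 0.05, with the median of all probe sets dotted. Tcf21 and Meis1 lie among falling factors such as Tbx4, Tbx5, Nr2f1 and Nr2f2, and Tnc, Hoxa10 and Postn have the highest values of the last list.

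A last list held 6 genes linked to the 7 factors in other tissues. In control culture 3 rose and none fell, and with Wnt1 2 rose and none fell. Of all probe sets 16.8% rose and 6.42% fell in control culture, and 7.09% rose and 4.34% fell with Wnt1. With median scaling 1 rose and 2 fell in either culture, the falls being those of Sfrp1 and Sfrp2. Under that scaling 1580 of all 37414 probe sets rose and 9345 fell in control culture. With Wnt1 1216 rose and 7157 fell. Tnc, the matrix protein tenascin C, linked to Prrx1 in vascular smooth muscle, had means of 594 with Wnt1 and 660 in control culture, against 69.5 in stalk (2.49 ± 0.50 and 2.63 ± 0.50, adjusted p = 0.013 and 0.0074). Postn, the matrix protein periostin, linked to Twist1 in bone-forming cells, had 903 and 1061, against 232 in stalk (1.79 ± 0.41 and 2.0 ± 0.41). Hoxa10 rose in control culture (2.30 ± 0.67), and with the signal floor it was at 0.22. Tnc and Hoxa10 lay under the filter value on every uncultured array. They passed the filter through the groups where they were high, so their direction supports nothing. Sfrp1 and Sfrp2, secreted Wnt inhibitors that depend on Barx1 in stomach mesenchyme, were at -1.20 ± 0.39 and -1.28 ± 0.49 with Wnt1 and at -0.78 ± 0.39 and -0.59 ± 0.49 in control culture, and none of these passed with the settings used here.

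None of the 4 lists had a member that passed in tip against stalk or in Wnt1 against control culture. For tip the 2 largest values of each list were those of Hoxa9 (-1.08 ± 0.59), Sfrp2 (-0.72 ± 0.49), Tgif1 (-0.65 ± 0.54), Tcf15 (-0.64 ± 0.45), Wt1 (0.60 ± 0.43), Pknox2 (-0.55 ± 0.61), Id2 (0.53 ± 0.46) and Msx1 (0.52 ± 0.58). For Wnt1 against control culture the 2 of each list were Snai1 (-1.78 ± 0.60), Hand2 (-1.63 ± 0.64), Pknox2 (1.10 ± 0.61), Snai2 (-0.99 ± 0.42), Tgif1 (0.96 ± 0.54), Id1 (0.87 ± 0.35), Sfrp2 (-0.69 ± 0.49) and Sfrp1 (-0.42 ± 0.39). Snai1 also rose in control culture against stalk (1.75 ± 0.60, adjusted p = 0.049, and 0.20 with the signal floor). Of the uncultured arrays it exceeded the filter value on tip replicate 2 only, so its direction supports nothing.

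The genes with the most similar pattern were found for Tcf21 and Meis1, whose brightest probe sets passed in a comparison, by the root mean square difference of log2 values over the 8 arrays after centring each gene on its own mean. For Tcf21 they were Ccdc71l (0.14), Pik3c3 (0.14), the catalytic subunit of a lipid kinase of autophagy and endosomes, and Ppfia1 (0.18), out of 14688 genes. For Meis1 they were E2f3 (0.078), a cell cycle transcription factor, Usp7 (0.091), a deubiquitinating enzyme, and Nr2f1 (0.13), a nuclear receptor. The log2 values of Tcf21 and Meis1 spanned 1.55 and 1.90 over the arrays. E2f3 had 805 and 742 with Wnt1 and 557 and 926 in control culture, against 2085 and 2105 in stalk, and 2034 and 2348 in tip. Among the 7 genes the closest pairs were Hlx and Meis2 (0.43), Meis1 and Tcf21 (0.50) and Meis1 and Meis2 (0.51), and the farthest was Barx1 and Hlx (1.45).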

How the data were processed

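Per the labels' protocols, RNA went through 2 cycles of cDNA amplification and was biotin-labelled. What the authors deposited is array intensity, linear and not logged; the submitters' processing notes name Affymetrix Expression Console and MAS5. Their versions and settings, and the detection calls, were not used here. Of 45101 probe sets 64 controls were left out, and 34945 of the rest have 1 symbol, 932 several and 9160 none. Probe sets above 96.4 (the 40th percentile) on at least 2 arrays were kept, and 44 is the 25th percentile. Fold changes on this scale understate dim genes.

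A single limma fit (version 3.58.1, R 4.3.3) of 4 group means covered the 8 arrays, using lmFit, then eBayes with trend. Tests were two-sided. An exact permutation test of 2 against 2 arrays cannot give a p below 0.33 and was not run. The fit was tested on simulated data. Plots used matplotlib 3.10.9 (Python 3.11.15). Where 1 probe set stands for a gene, it is the one with the highest mean over all arrays. Of each list up to 4 called genes with the smallest p are named, and with none called the 2 of greatest size; further genes appear as values only. Members and lists were chosen with earlier results of these data known, so the lists' counts are not independent evidence. Some genes of these lists are not reported here. There were 18 alternatives planned and 2 added after the values were seen, median scaling and leaving out both culture arrays numbered 1.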

Additional observations from a re-analysis of the deposited data

How the results depend on the processing

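The depth of an array is its signal over background: Twist1, Barx1 and most Prrx1 probe sets lay near or under the array medians, and their size and sign are limited by it. No paired design is given by the labels, so the numbers were not taken to pair the arrays. Deviations of same-numbered arrays correlated at -0.015 for tip and stalk, 0.27 for the 2 cultures and 0.15 for either culture with stalk (across probe sets). The culture arrays numbered 1 had medians of 298 (control) and 295 (Wnt1), and those numbered 2 had 209 and 149. A pairing within the 2 cultures alone was not tested. A fit with the replicate number as a block (replicate block) gave 8515 of all probe sets and 5 members in Wnt1 culture against stalk, where the main counts were 4276 and 3, and 1 probe set, no member, for Wnt1 against control culture. With the block Barx1 passed against stalk (limma, adjusted p = 0.037 with Wnt1 and 0.027 in control culture).

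In control culture against stalk the main counts were 8687 of all probe sets and 7 members. They were 2334 and 1 with quantile normalization, 675 and 1 with the signal floor, 4251 and 3 with 1 probe set a gene, where fewer were tested, and all probe sets gave 14694 without both culture arrays numbered 1. In Wnt1 culture against stalk they were 903 and 0 with quantile normalization, 115 and 1 with the signal floor, 2615 and 1 with 1 probe set a gene, 2614 and 1 without the intensity trend, 8373 and 6 with median scaling, and 9270 and 6 without both culture arrays numbered 1; all probe sets gave 2223 with array weights. For Wnt1 against control culture all probe sets gave 1 with a pseudocount of 1, 46 with the signal floor and 906 without both arrays numbered 1 (1 member), and for tip against stalk 3 with the signal floor and 3 with array weights. Where an array is left out, the lone array of its group is assumed to vary like the other groups; without both arrays numbered 1 the spread comes from tip and stalk alone, whose arrays differ less, so those counts do not show a firmer result. The other causes were not tested. The share of calls that were higher in control culture was 72.4%, and 44.4% with quantile normalization, 37.6% with the floor and 14.5% with median scaling. With Wnt1 it was 62%, and 46.6%, 27% and 14.5%. Median scaling put the median of all probe sets at -0.47 and -0.45 in these 2 comparisons.

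Leaving out 1 array at a time, all probe sets ranged from 214 to 14234 and members from 0 to 9 in control culture against stalk, from 179 to 12699 and from 0 to 6 in Wnt1 culture against stalk, and from 0 to 58 and 0 to 0 for Wnt1 against control culture. Both counts of all probe sets were lowest without stalk replicate 2.

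Signs turned in values that had not passed. For Wnt1 against control culture Barx1 was at 0.25 with quantile normalization, 0.20 with median scaling and 0.0027 without both culture arrays numbered 1, Meis2 at 0.18 with median scaling and Meis1 at -0.45 without both arrays. In tip against stalk Meis1 was at -0.019 with median scaling. In control culture against stalk Twist1 was at -0.15 with quantile normalization and -0.087 with median scaling, Hlx at 0.090 with the signal floor and 0.54 without both arrays numbered 1, and Prrx1 at 0.18 and 0.79. In Wnt1 culture against stalk Prrx1 on 1425526_a_at was at -0.29 with quantile normalization and -0.41 with median scaling, and Hlx at 0.14 without both arrays. Without 1 array the ranges were -0.35 to 0.063 for Meis2 in tip against stalk. For Wnt1 against control culture they were -0.37 to 0.39 for Meis1, -0.78 to 0.65 for Meis2, -1.39 to 0.70 for Hlx, -0.056 to 0.999 for Twist1, -1.26 to 0.72 for Prrx1 and -0.28 to 0.27 for Barx1. In control culture against stalk they were -1.55 to 0.54 for Hlx and -1.19 to 0.79 for Prrx1, and in Wnt1 culture against stalk -1.84 to 0.14 for Hlx.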
